A study of Mus musculus with 9 samples.

Results

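Chemokine ligands are small secreted proteins that bind G protein-coupled receptors and steer the movement of leukocytes and other cells. They were taken as every probe whose gene name on the array begins with CXCL or CCL and a digit, or is CX3CL1, XCL1 or PF4. This gave 35 gene names with 50 probes, of 30774 names and 45281 probes on the array. Of these, 30 probes of 21 genes were detected, meaning a detection value above 0.99 on at least 3 of the 9 arrays.

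The cells came from the mammary glands of virgin C57BL/6 mice, 10 weeks old, that all carried Lgr5-GFP-IRES-CreERT2. From this allele the Lgr5 promoter drives GFP and a tamoxifen-inducible Cre. Fluorescence-activated cell sorting gave 3 groups, namely Lgr5+ basal cells, Lgr5- basal cells and luminal cells, each measured on 3 Illumina MouseWG-6 v2.0 arrays with up to 125 ng of RNA per sample. Basal cells form the outer, contractile layer of the gland and luminal cells line its ducts. Sample titles number the replicates 1 to 3 in each group, and the same-numbered samples of the 3 groups were taken here as 1 pool. The sources used here give neither the sort markers nor how many mice made up a pool, so p-values here reflect how far pools differ, which may be in part technical. The main fit shares 1 spread over all 3 groups, also where only the basal groups are compared. Values are normalized log2 intensities, listed for pools 1, 2 and 3 in that order. Levels of different probes are not comparable.

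Lgr5 and the markers of both layers followed the labels, and a pair of arrays stood apart. Lgr5 stood at 9.78, 9.83 and 10.65 on the Lgr5+ basal arrays, 8.24, 8.14 and 8.94 on the Lgr5- basal arrays and 4.72, 5.13 and 5.15 on the luminal arrays, so no groups overlapped. Its log2 difference between the basal groups was 1.65 (limma adjusted p = 0.0246). The summed linear intensity of 8 basal markers was 80510 to 93070 in Lgr5+ basal cells and 91550 to 97480 in Lgr5- basal cells. In luminal cells it was 2883 and 2730 in replicates 1 and 3 but 19080 in replicate 2, which stood apart. Luminal markers (8 of 8 detected) summed to 10320 to 12330, 10080 to 10510 and 78650 to 82680 in the same order of groups. Lgr5+ basal replicate 2 stood apart in endothelial markers (9 of 12 detected; Kdr, Tie1 and Prox1 were not), with a sum of 6412 against 2526 and 1481 in its group, 3214 to 4177 in Lgr5- basal cells and 1020 to 1809 in luminal cells. It also stood apart in leukocyte markers (2 of 6 detected, Laptm5 and Coro1a), with a sum of 325 against 105.9 and 124.7 in its group, 116.5 to 129 in Lgr5- basal cells and 76.92 to 146.9 in luminal cells. Results that rest on these arrays are given with and without them. Between 15235 and 17423 probes were detected per array.

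Chemokines fall into the CC, CXC, XC and CX3C families by the spacing of their first cysteines. In tissues some are made steadily and keep cells in place, such as CXCL12, the ligand of CXCR4 and of the scavenging receptor ACKR3. Others, such as CXCL1, CXCL2 and CXCL10, are switched on by NF-kB or interferon signalling and draw neutrophils or T cells. In the mammary gland, macrophages and eosinophils take part in ductal branching.

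Promoters of 24 member genes were found in the RefSeq table of build GRCm38.p6, 13 of them genes with a detected probe. The 4 shown were chosen because their genes showed the basal and luminal extremes (Cxcl14 and Cxcl15) or formed a pair of related neutrophil attractants with different patterns (Cxcl1 and Cxcl2). Each line gives the 250 bases before the annotated start, 5′ to 3′ along the gene, and capitals mark matches to the motifs searched.
Cxcl14 (chr13:56296552-56296801, minus strand): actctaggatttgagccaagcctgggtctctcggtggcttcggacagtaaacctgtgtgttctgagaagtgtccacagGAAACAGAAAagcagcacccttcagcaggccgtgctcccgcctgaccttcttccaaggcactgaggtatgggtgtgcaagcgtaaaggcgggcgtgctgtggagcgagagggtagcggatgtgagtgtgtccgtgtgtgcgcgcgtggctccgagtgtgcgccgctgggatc
Cxcl15 (chr5:90794284-90794533, plus strand): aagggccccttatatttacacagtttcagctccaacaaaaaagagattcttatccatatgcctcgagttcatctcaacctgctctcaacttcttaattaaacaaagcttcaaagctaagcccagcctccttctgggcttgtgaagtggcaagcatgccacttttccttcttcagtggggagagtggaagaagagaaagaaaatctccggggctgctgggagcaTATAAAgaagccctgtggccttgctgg
Cxcl1 (chr5:90890995-90891244, plus strand): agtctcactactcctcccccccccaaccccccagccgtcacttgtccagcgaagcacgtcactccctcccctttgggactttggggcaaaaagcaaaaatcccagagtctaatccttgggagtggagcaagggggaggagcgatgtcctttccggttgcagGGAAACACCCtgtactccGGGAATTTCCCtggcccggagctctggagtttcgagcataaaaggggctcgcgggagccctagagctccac
Cxcl2 (chr5:90903649-90903898, plus strand): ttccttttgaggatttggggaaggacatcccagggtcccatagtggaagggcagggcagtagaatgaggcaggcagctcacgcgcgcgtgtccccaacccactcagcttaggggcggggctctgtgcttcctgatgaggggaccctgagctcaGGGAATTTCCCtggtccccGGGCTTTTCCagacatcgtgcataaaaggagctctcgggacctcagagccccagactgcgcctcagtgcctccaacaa
Motifs were sought on both strands from 250 bases before to 50 bases after the start. The letters were TATAAA (the core of the TATA box), TGANTCA (an AP-1 site), GGG and TTCC with any 3 bases between them (an NF-kB site), and GAAA and GAAA with any 2 bases between them (an interferon-stimulated response element). They were held by 13.6%, 7.81%, 5.56% and 3.44% of all 32851 promoters, and by 7, 5, 7 and 3 of the 27 member promoters. Cxcl1 and Cxcl2 each held 3 NF-kB matches, at -89, -71 and -70 and at -97, -96 and -78, of which the pairs 1 base apart overlap on opposite strands. Cxcl15 held a TATA box at -27 and Cxcl14 a response element match at -172. Among promoters of detected members, NF-kB matches were also in Cxcl10, and response element matches also in Ccl19 and Cxcl10. Each match is a description of letters and not of a bound site.

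No probe was detected for 14 members. These were CCL1, CCL3, CCL6, CCL9, CCL17, CCL20, CCL22, CCL24, CCL26, CCL28, CXCL3, CXCL4 (platelet factor 4), CXCL11 and XCL1. The 20 undetected probes, some of them second probes of detected genes, had log2 values between 4.26 and 5.73. They include attractants of regulatory and memory T cells (CCL17 and CCL22, ligands of CCR4) and the mucosal chemokine CCL28. A probe near background gives only a limit on expression. The authors had set aside 20 of the 50 member probes, among them 2 detected ones (one each of CCL7 and CCL25), and had kept 2 undetected ones. Of the detected probes, 16 were detected on all 9 arrays. Luminal arrays detected 21 or 22 member probes each and basal arrays 26 to 30.

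Against luminal cells, basal cells held higher levels of CXCL14, CXCL12, CCL2, CCL7, CCL11, CX3CL1, CXCL16 and CCL27, and luminal cells held higher levels of CXCL15, CXCL17 and CCL25. In Lgr5+ basal cells 16 of 30 member probes passed against luminal cells (adjusted p under 0.05), 13 higher (8 genes) and 3 lower (3 genes). Over all 17712 detected probes, 48% passed in that comparison, 22.8% higher and 25.2% lower. In Lgr5- basal cells 19 member probes passed against luminal cells, 15 higher (10 genes) and 4 lower (4 genes), where 42.6% of all probes passed, 20.7% higher and 21.8% lower. Median log2 differences of the member probes were 0.78 and 0.83, against -0.05 and -0.04 for all probes. Groups did not overlap for 17 member probes (13 higher, 4 lower) in Lgr5+ and 19 (15 higher, 4 lower) in Lgr5- basal cells, against 54% (25.5% and 28.5%) and 53.9% (25.7% and 28.2%) of all probes. Both comparisons share the luminal arrays. With BeadChip as a block the member counts were 19 and 20, against 51.4% and 45.8% of all probes. Within BeadChip 1, which held pools 1 and 2, they were 22 and 21, against 46% and 36.9%. As the RNA came from many cells, fewer cells that express a gene and less RNA per cell cannot be told apart.

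**Figure D1:**
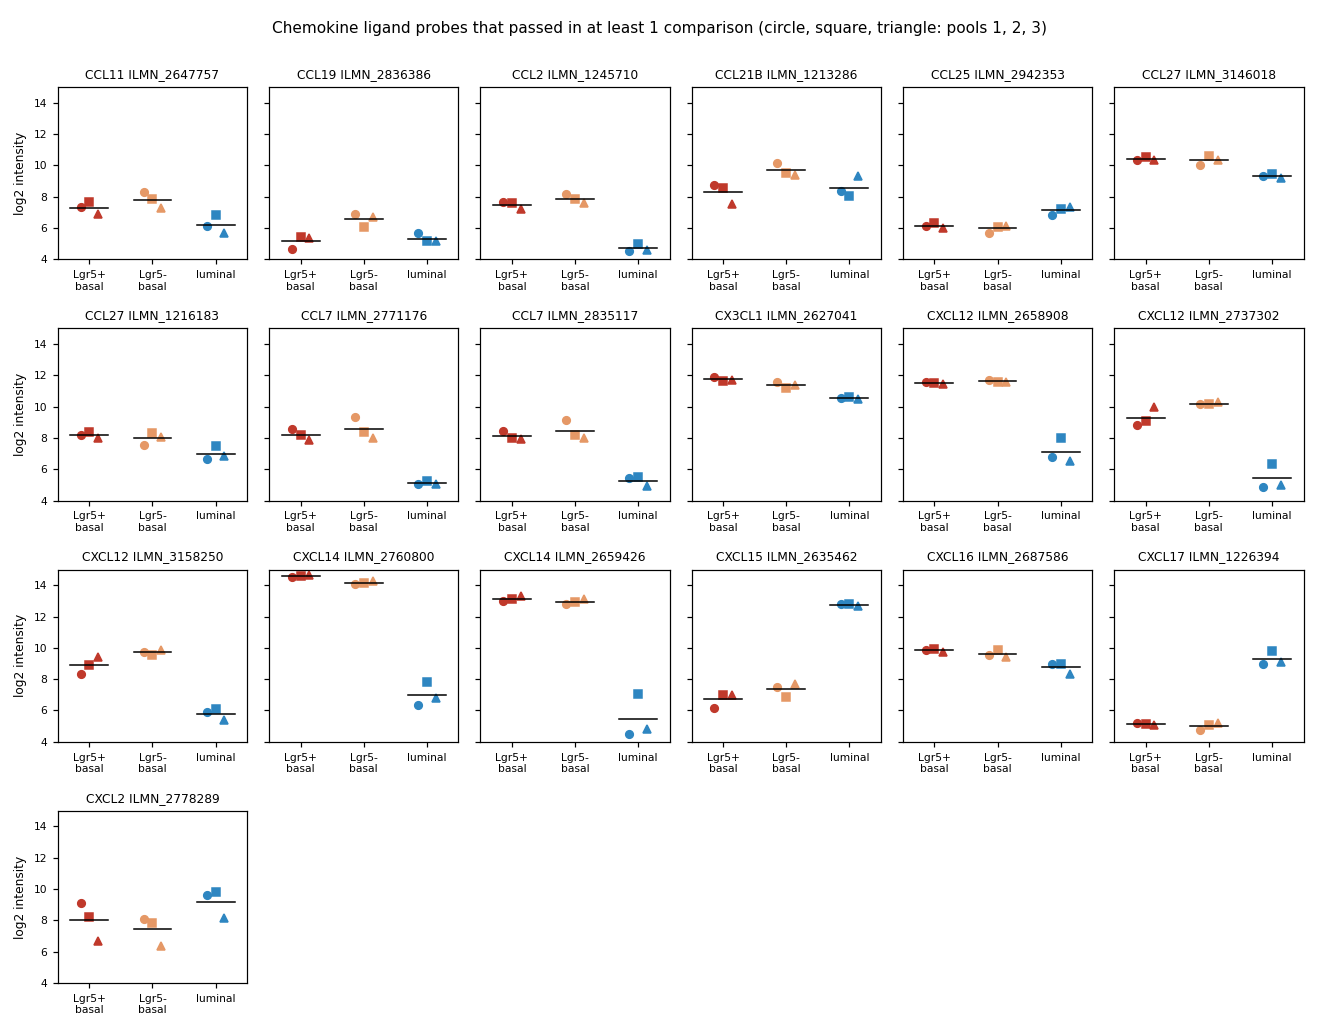
Normalized log2 intensity (y axis) of the 19 member probes that passed in at least 1 comparison, one panel per probe, in Lgr5+ basal, Lgr5- basal and luminal cells (x axis). Symbols are arrays, with circle, square and triangle for pools 1, 2 and 3, and lines are group means of 3 arrays. CXCL14 and CXCL12 lie high in both basal groups, and CXCL15 and CXCL17 in luminal cells.

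CXCL14 is a chemokine that epithelia make without stimulation. Its brighter probe (ILMN_2760800) stood at 14.52, 14.56 and 14.64 in Lgr5+ basal cells, 14.07, 14.15 and 14.25 in Lgr5- basal cells and 6.35, 7.79 and 6.79 in luminal cells. The basal arrays lay far above the luminal ones, and all 3 Lgr5+ arrays lay above all 3 Lgr5- arrays. Against luminal cells the log2 difference was 7.60 (SE 0.30, 193-fold, adjusted p = 2.93e-08) in Lgr5+ and 7.18 (145-fold, adjusted p = 3.83e-08) in Lgr5- basal cells. Raw signals of this probe reached 67.6% to 86.2% of the array maximum in Lgr5+ and 48.7% to 69.1% in Lgr5- basal cells, a range in which bead signals can flatten. Between the basal groups it differed by 0.41 (95% CI -0.25 to 1.08, adjusted p = 0.57), and by 0.45, 0.41 and 0.39 in pools 1, 2 and 3. This interval uses the spread of all 3 groups, with SDs of 0.06 in Lgr5+ basal, 0.09 in Lgr5- basal and 0.74 in luminal cells. With only the 2 basal groups in the fit it did not pass either. The other probe (ILMN_2659426) stood at 12.97, 13.12 and 13.30 in Lgr5+ basal, 12.79, 12.93 and 13.14 in Lgr5- basal and 4.53, 7.02 and 4.83 in luminal cells. It overlapped between the basal groups and was detected on 1 luminal array, replicate 2. Differences from luminal cells were 7.67 (adjusted p = 5.02e-07) and 7.49 (adjusted p = 5.8e-07). Luminal replicate 2, with its high basal markers, was the highest luminal array for both probes. Without it the differences of ILMN_2760800 were 8.004 in Lgr5+ and 7.59 in Lgr5- basal cells, and ILMN_2659426 was left with no luminal array that detected it. The sizes also depend on background correction: without it ILMN_2760800 differed by 6.50 and 6.09, still past the threshold.

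CXCL12 was measured by 3 detected probes. The probe ILMN_2658908 stood at 11.54, 11.48 and 11.46 in Lgr5+ basal, 11.71, 11.56 and 11.60 in Lgr5- basal and 6.80, 7.97 and 6.53 in luminal cells. Its differences from luminal cells were 4.39 (21.0-fold, adjusted p = 7.23e-07) for Lgr5+ and 4.52 (23.0-fold, adjusted p = 5.8e-07) for Lgr5- basal cells. Both basal groups lay close together and well above the luminal arrays, of which replicate 2 was again the highest. Probe ILMN_2737302 stood at 8.80, 9.06 and 9.97, at 10.15, 10.14 and 10.29 and at 4.90, 6.35 and 5.02 in the same order of groups, and probe ILMN_3158250 at 8.34, 8.87 and 9.41, at 9.73, 9.57 and 9.88 and at 5.93, 6.12 and 5.37. Both passed against luminal cells, by 3.85 and 3.07 in Lgr5+ and by 4.77 and 3.92 in Lgr5- basal cells (largest adjusted p = 1.22e-05). Without luminal replicate 2, ILMN_2658908 differed by 4.83 and 4.96 and ILMN_3158250 by 3.22 and 4.08, while ILMN_2737302 was detected on no other luminal array. Without background correction the 3 probes differed from luminal cells by 3.41, 2.05 and 1.64 in Lgr5+ and by 3.54, 2.83 and 2.33 in Lgr5- basal cells, all past the threshold. On all 3 probes the Lgr5+ arrays lay below the Lgr5- arrays, yet the size differed between probes: -0.13 (95% CI -0.81 to 0.55, adjusted p = 0.899), -0.92 (-1.77 to -0.07, adjusted p = 0.29) and -0.86 (-1.47 to -0.24, adjusted p = 0.179). None passed with all arrays. For ILMN_2658908 the shared spread joined SDs of 0.04 in Lgr5+ basal, 0.08 in Lgr5- basal and 0.77 in luminal cells. ILMN_3158250 passed without Lgr5+ basal replicate 3 (-1.12, adjusted p = 0.0313) and within BeadChip 1 (-1.05, adjusted p = 0.0471). A further pair of CXCL12 probes was not detected.

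CCL2 and CCL7, which draw monocytes through CCR2, were detected on all 6 basal arrays and on no luminal array. CCL2 stood at 7.64, 7.59 and 7.19 in Lgr5+ basal, 8.19, 7.83 and 7.62 in Lgr5- basal and 4.53, 4.95 and 4.61 in luminal cells. Lgr5+ basal cells exceeded luminal cells by at least 3.85-fold (adjusted p = 1.32e-06) and Lgr5- basal cells by at least 5.12-fold (adjusted p = 4.49e-07). These bounds set the mean of the higher group against the lowest level called detected on each array of the lower group, or its value where larger. The lower group here was luminal cells. All bounds of this kind were made so, on the background-corrected scale. The CCL2 bounds do not hold without that correction, where CCL2 differed by 1.00 and 1.24 on the log2 scale, still past the threshold. CCL7 (ILMN_2771176) stood at 8.55, 8.18 and 7.85 in Lgr5+ basal, 9.31, 8.35 and 7.998 in Lgr5- basal and 5.03, 5.26 and 5.06 in luminal cells, at least 6.36-fold (adjusted p = 1.21e-05) and at least 8.16-fold higher (adjusted p = 5.01e-06). The basal groups of both genes overlapped. The other CCL7 probe (ILMN_2835117) gave at least 6.08-fold and at least 7.48-fold, and it was one the authors had set aside. Without background correction the CCL7 probes differed by 1.32 and 1.24 in Lgr5+ and by 1.59 and 1.46 in Lgr5- basal cells, all past the threshold.

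CCL11, eotaxin, attracts eosinophils through CCR3. It stood at 7.32, 7.64 and 6.91 in Lgr5+ basal, 8.28, 7.88 and 7.30 in Lgr5- basal and 6.11, 6.86 and 5.70 in luminal cells. Differences from luminal cells were 1.07 (adjusted p = 0.021) and 1.60 (adjusted p = 0.00251). The first did not pass without Lgr5+ basal replicate 1 (1.05, adjusted p = 0.0527), Lgr5+ basal replicate 2 (0.89, adjusted p = 0.0818), luminal replicate 1 (1.01, adjusted p = 0.0634) or luminal replicate 3 (0.81, adjusted p = 0.0769). With all arrays it was 1.22, 0.78 and 1.20 in pools 1, 2 and 3, and these groups did not overlap. Between the basal groups CCL2, CCL7 and CCL11 differed by -0.41, by -0.36 and -0.30 and by -0.53, with adjusted p of 0.388 to 0.699. Fibroblast markers (9 of 9 detected) had sums of 5781 to 6528 in Lgr5+ basal, 11600 to 12470 in Lgr5- basal and 1677 to 2213 in luminal cells, and all 9 averaged higher in both basal groups than in luminal cells. Between the basal groups the order of the sums is that of Dcn, at 11.80, 11.87 and 11.66 in Lgr5+ basal, 13.29, 13.18 and 13.27 in Lgr5- basal and 10.30, 10.72 and 10.77 in luminal cells (adjusted p = 0.00413 between the basal groups). The other markers did not pass between the basal groups, and 6 of the 9 averaged higher in Lgr5+ basal cells. Their part in these results was not tested.

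CX3CL1 and CXCL16 are made as membrane-anchored chemokines that ADAM proteases release from the cell surface. CX3CL1, the ligand of CX3CR1 on monocytes and macrophages, stood at 11.89, 11.66 and 11.71 in Lgr5+ basal, 11.58, 11.19 and 11.41 in Lgr5- basal and 10.58, 10.59 and 10.46 in luminal cells. No groups overlapped. It was 2.32-fold higher in Lgr5+ (log2 difference 1.21, adjusted p = 1.23e-04) and 1.81-fold higher in Lgr5- basal cells (0.85, adjusted p = 0.00157) than in luminal cells. Between the basal groups it differed by 0.36 (95% CI -0.002 to 0.73, adjusted p = 0.33). CXCL16, the ligand of CXCR6 (ILMN_2687586), stood at 9.87, 9.90 and 9.72 in Lgr5+ basal, 9.51, 9.83 and 9.38 in Lgr5- basal and 8.98, 8.97 and 8.34 in luminal cells. It was higher than in luminal cells by 1.07 (adjusted p = 0.00165) and 0.82 (adjusted p = 0.0092), and its dimmer probe (ILMN_1254723) did not pass, at 0.61 (adjusted p = 0.162) and 0.50 (adjusted p = 0.273). That dimmer probe ran from 5.58 to 7.48 over the 9 arrays.

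CCL27 is an epithelial chemokine of skin whose receptor is CCR10. Probe ILMN_3146018 stood at 10.36, 10.53 and 10.32 in Lgr5+ basal, 10.02, 10.60 and 10.34 in Lgr5- basal and 9.34, 9.47 and 9.18 in luminal cells. Probe ILMN_1216183 stood at 8.21, 8.36 and 7.97, at 7.54, 8.29 and 8.06 and at 6.66, 7.47 and 6.86 in the same order. The basal groups overlapped and both lay above luminal cells, by 1.07 and 1.19 for Lgr5+ (adjusted p = 6.89e-04 and 0.00291) and by 0.99 and 0.97 for Lgr5- basal cells (adjusted p = 0.00125 and 0.0102). Mouse Ccl27 has near-identical gene copies that overlap Il11ra loci, so signal from these copies cannot be told apart.

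CXCL15, known as lungkine in mice, attracts neutrophils in the lung. It stood at 6.16, 6.98 and 7.02 in Lgr5+ basal, 7.49, 6.88 and 7.68 in Lgr5- basal and 12.80, 12.77 and 12.65 in luminal cells. The luminal arrays lay close together and far above every basal array. Its level in Lgr5+ basal cells was 65.0-fold lower than in luminal cells (log2 difference -6.02, SE 0.27, adjusted p = 4.89e-08), and in Lgr5- basal cells 42.0-fold lower (-5.39, adjusted p = 8.41e-08). Without background correction these differences were -4.82 and -4.52, still past the threshold. Lgr5+ and Lgr5- basal cells differed by -0.63 (95% CI -1.22 to -0.04, adjusted p = 0.294), and by -1.33, 0.10 and -0.66 in pools 1, 2 and 3.

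CXCL17, a chemokine of mucosal epithelia, was detected on all luminal arrays and on no basal array. It stood at 5.20, 5.17 and 5.04 in Lgr5+ basal, 4.74, 5.09 and 5.18 in Lgr5- basal and 8.98, 9.81 and 9.08 in luminal cells. The level was at least 14.4-fold lower in Lgr5+ (adjusted p = 1.54e-07) and at least 15.4-fold lower in Lgr5- basal cells (adjusted p = 1.27e-07) than in luminal cells, on the background-corrected scale. Without background correction the log2 differences were -2.14 and -2.18, smaller than these bounds and still past the threshold. CCL25, which guides T cells to thymus and small intestine through CCR9, was seen by 1 detected probe that the authors had set aside. The CCL25 probe they had kept was detected on no array. The detected probe stood at 6.13, 6.31 and 6.01 in Lgr5+ basal, 5.70, 6.10 and 6.15 in Lgr5- basal and 6.85, 7.19 and 7.37 in luminal cells. Its log2 differences were -0.99 (adjusted p = 0.00177) and -1.15 (adjusted p = 6.63e-04). Every luminal value of CXCL17 and CCL25 lay above every basal value.

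CXCL2 attracts neutrophils through CXCR2. Probe ILMN_2778289 stood at 9.10, 8.20 and 6.69 in Lgr5+ basal, 8.11, 7.81 and 6.37 in Lgr5- basal and 9.60, 9.82 and 8.12 in luminal cells, and probe ILMN_2811154 at 7.15, 6.75 and 5.21, at 7.01, 6.14 and 5.34 and at 7.89, 8.57 and 6.26. Within every pool both basal values lay below the luminal value, while pool 3 was the lowest in all 3 groups on both probes. Without a term for pool, ILMN_2778289 did not pass in Lgr5+ basal cells (-1.18, adjusted p = 0.156) but did in Lgr5- basal cells (-1.75, adjusted p = 0.0492), and ILMN_2811154 passed in neither (-1.20, adjusted p = 0.147, and -1.41, adjusted p = 0.103). Under the replicate block by pool both passed in Lgr5+ (adjusted p = 0.0023 and 0.00855) and in Lgr5- basal cells (2.66e-04 and 0.00424). The difference in Lgr5- basal cells did not pass without luminal replicate 2 (-1.43, adjusted p = 0.167), Lgr5- basal replicate 3 (-1.22, adjusted p = 0.179), luminal replicate 1 (-1.54, adjusted p = 0.14), Lgr5- basal replicate 2 (-1.94, adjusted p = 0.0685) or Lgr5+ basal replicate 2 (adjusted p = 0.065). ILMN_2811154 passed in both basal groups without luminal replicate 3 (-1.86, adjusted p = 0.0271, and -2.06, adjusted p = 0.019). Of the macrophage and dendritic markers 5 of 13 were detected, and their sums were 766.8 to 1297 in Lgr5+ basal, 798.4 to 1539 in Lgr5- basal and 3107 to 4260 in luminal cells. The luminal sum came mostly from Cd14, at 11.99, 11.49 and 11.72 in luminal cells. Other markers of the list ran the other way: Cd74, H2-Aa and Cd68 were higher in Lgr5+ basal than in luminal cells (adjusted p = 1.75e-04, 0.00205 and 0.00927), and Cd74 also in Lgr5- basal cells (adjusted p = 1.45e-04). Adgre1 and Csf1r, which define macrophages, were not detected, nor were the leukocyte markers Ptprc, Cd52, Cd48 and Cd53 (2 of 6 detected), and the part of such cells was not tested.

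**Figure D2:**
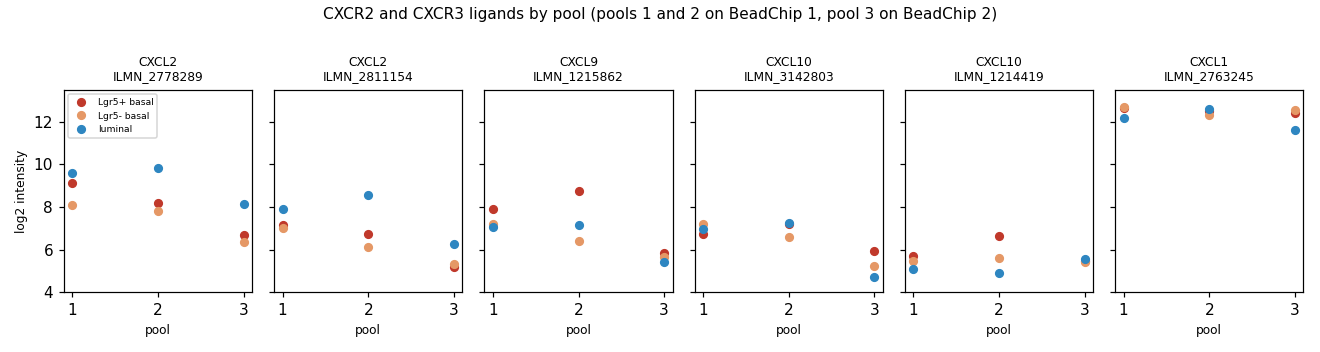
Normalized log2 intensity (y axis) of CXCR2 ligands (CXCL1, CXCL2) and CXCR3 ligands (CXCL9, CXCL10) by pool (x axis), one panel per probe and 1 point per array, with red for Lgr5+ basal, orange for Lgr5- basal and blue for luminal cells. CXCL2 is highest in luminal cells in every pool and lowest in pool 3 in every group, whereas CXCL1 lies at 11.59 to 12.69 on all arrays.

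Comparing Lgr5+ with Lgr5- basal cells asks whether the Lgr5-expressing basal cells differ in chemokines within their layer. On every probe of the CCR7 ligands CCL19 and CCL21 all Lgr5+ arrays lay below all Lgr5- arrays, with log2 differences of -1.39 to -1.47. Of these, CCL19 passed, and its call was lost under most of the alternatives tried. In all, 1 of 30 member probes passed, lower in Lgr5+ cells, and 0 passed as higher, while 0.965% of all probes passed (0.474% higher, 0.491% lower). An unadjusted p under 0.05 was found for 7 member probes, those of CCL19, CCL21 and CXCL15 and ILMN_2737302 and ILMN_3158250 of CXCL12. The share of all probes with such a p was not counted, so this count shows no trait particular to chemokines. The groups did not overlap for 9 member probes, with 2 higher and 7 lower, against 21.6% of all probes, 10.5% higher and 11.1% lower. The 2 were CX3CL1 and CXCL14 (ILMN_2760800), and the 7 were CCL19 and the 3 probes each of CCL21 and CXCL12. The median of the members was 0.10, against -0.00028 for all probes. With BeadChip as a block 1 member probe passed, and within BeadChip 1 alone 5 did, where 5.18% of all probes passed, 2 higher (CCL5 at 0.99 and CXCL9 at 1.53) and 3 lower (2 of CCL21 and ILMN_3158250 of CXCL12).

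CCL19 and CCL21 guide dendritic cells and naive T cells to lymphoid tissue through CCR7, and CCL21 is typical of lymphatic endothelium. CCL19 stood at 4.68, 5.46 and 5.39 in Lgr5+ basal, 6.91, 6.07 and 6.73 in Lgr5- basal and 5.67, 5.14 and 5.15 in luminal cells, detected on 2, 3 and 1 arrays. Lgr5- basal values lay above all others. Its difference between the basal groups was -1.39 (SE 0.28, adjusted p = 0.0484), and -2.22, -0.62 and -1.33 in pools 1, 2 and 3. The replicate block by pool ended this call (adjusted p = 0.0791). It did not pass within BeadChip 1 (-1.42, adjusted p = 0.058) or without background correction (-0.44, adjusted p = 0.0923), and with BeadChip as a block the adjusted p was 0.0493. It also did not pass without Lgr5+ basal replicate 1 (0.182) or 2 (0.0944), Lgr5- basal replicate 1 (0.191) or 3 (0.13) or any luminal array (0.0629 to 0.0737, adjusted p). Against luminal cells it differed by -0.14 in Lgr5+ (adjusted p = 0.701) and by 1.25 in Lgr5- basal cells (adjusted p = 0.00404).

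CCL21 was read by 3 probes, labelled CCL21B and CCL21C, whose genes are near-identical copies that these probes may not separate. The CCL21B probe stood at 8.76, 8.57 and 7.56 in Lgr5+ basal, 10.14, 9.50 and 9.41 in Lgr5- basal and 8.34, 8.04 and 9.30 in luminal cells. CCL21C (ILMN_2969845) stood at 7.09, 7.11 and 6.66, at 9.13, 8.09 and 8.05 and at 7.26, 7.25 and 8.16 in the same order, and ILMN_2640848 at 8.01, 7.87 and 7.29, at 9.88, 8.73 and 8.90 and at 7.997, 8.34 and 8.94. The Lgr5- arrays lay above the Lgr5+ arrays on each probe, and luminal replicate 3 was the highest luminal array. Between the basal groups the differences were -1.39 (95% CI -2.23 to -0.55, adjusted p = 0.127), -1.47 (-2.20 to -0.74, adjusted p = 0.0758) and -1.44 (-2.19 to -0.69, adjusted p = 0.0868). Against luminal cells, CCL21B was higher in Lgr5- basal cells by 1.12 (adjusted p = 0.035), a call lost without luminal replicate 2 (0.86, adjusted p = 0.134), luminal replicate 1 (1.01, adjusted p = 0.104), Lgr5- basal replicate 1 (0.89, adjusted p = 0.125) or Lgr5- basal replicate 2 (1.21, adjusted p = 0.0578). The CCL21C probes did not pass there, at 0.87 (adjusted p = 0.0555) and 0.74 (adjusted p = 0.104), but did without luminal replicate 3 (1.17, adjusted p = 0.0153, and 1.00, adjusted p = 0.0457), and the first also without Lgr5- basal replicate 3 (1.06, adjusted p = 0.0457). In Lgr5+ basal cells no CCL21 probe passed against luminal cells (-0.27, -0.60 and -0.70, adjusted p = 0.111 to 0.595).

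Values of markers of other cells follow for the same arrays. Lyve1, a marker of lymphatic endothelium, stood at 4.95, 5.37 and 5.57 in Lgr5+ basal, 7.20, 6.83 and 6.02 in Lgr5- basal and 5.88, 5.91 and 6.93 in luminal cells, with replicate 3 the highest luminal array, as for CCL21. Its basal groups did not overlap, but it did not pass (adjusted p = 0.105). Of the other endothelial markers, only Eng was also highest in luminal replicate 3 among luminal arrays. Pecam1, Cdh5, Emcn, Esam, Cldn5 and Plvap were lowest there. No endothelial marker passed between the basal groups, and 4 of the 9 detected (Cdh5, Tek, Cldn5 and Eng) averaged higher in Lgr5+ basal cells. Those 4 rest on Lgr5+ basal replicate 2, their highest Lgr5+ array. Without it all 9 averaged lower in Lgr5+ than in Lgr5- basal cells. Prox1, which defines lymphatic endothelium, was not detected. Cd3e, the 1 of 11 T, NK and B cell markers that was detected, gave 77.2 to 98.0 in Lgr5+ basal, 148.5 to 185.3 in Lgr5- basal and 27.1 to 30.5 in luminal cells on the linear scale (adjusted p = 0.0384 between the basal groups). Of the fibroblast markers only Dcn, given above, passed between the basal groups. The part of these cells in the CCL19 and CCL21 values was not tested.

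**Figure D3:**
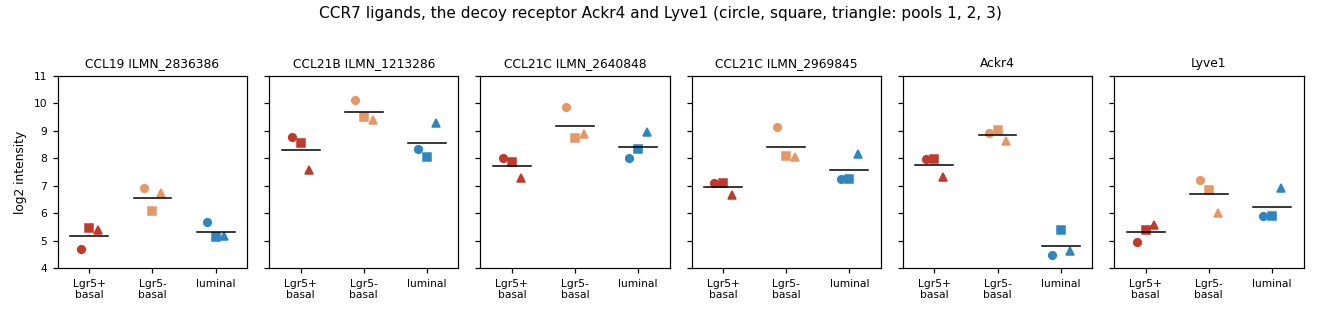
Normalized log2 intensity (y axis) of the CCR7 ligand probes, the scavenging receptor Ackr4 (brightest probe) and Lyve1 in Lgr5+ basal, Lgr5- basal and luminal cells (x axis). Circle, square and triangle are pools 1, 2 and 3 and lines are group means of 3 arrays. Lgr5+ basal arrays lie below Lgr5- basal arrays in every panel.

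With all arrays, no other member passed in any comparison. CXCL1, a neutrophil attractant that shares CXCR2 with CXCL2, stood at 12.64, 12.52 and 12.43 in Lgr5+ basal, 12.69, 12.30 and 12.54 in Lgr5- basal and 12.16, 12.61 and 11.59 in luminal cells. The groups overlapped. Differences from luminal cells were 0.41 in Lgr5+ (adjusted p = 0.183) and 0.39 in Lgr5- basal cells (adjusted p = 0.224), and without luminal replicate 2 they were 0.66 (adjusted p = 0.032) and 0.63 (adjusted p = 0.0399). The basal groups differed by 0.02 (95% CI -0.51 to 0.55, adjusted p = 0.982). CXCL9 and CXCL10 draw activated T cells through CXCR3 and are induced by interferon. CXCL9 stood at 7.88, 8.77 and 5.84 in Lgr5+ basal, 7.20, 6.39 and 5.67 in Lgr5- basal and 7.07, 7.16 and 5.44 in luminal cells, with pool 3 the lowest in each group. Lgr5+ and Lgr5- basal cells differed by 1.08 (95% CI -0.48 to 2.63, adjusted p = 0.52), and by 0.44 without Lgr5+ basal replicate 2, the array with high endothelial and leukocyte markers. The part of such cells was not tested. Against luminal cells the Lgr5+ difference was 0.94 (adjusted p = 0.296, and adjusted p = 0.0385 with BeadChip as a block), and without Lgr5+ basal replicate 3 it passed at 1.77 (adjusted p = 0.024). CXCL10 (ILMN_3142803) stood at 6.75, 7.19 and 5.92, at 7.21, 6.60 and 5.23 and at 6.96, 7.23 and 4.69, again with pool 3 the lowest. Its other probe (ILMN_1214419) ran from 4.90 to 6.66 and differed by 0.76 between Lgr5+ basal and luminal cells (adjusted p = 0.0502), and passed when Lgr5+ basal replicate 3 (1.00, adjusted p = 0.0168) or replicate 3 of the luminal arrays (0.96, adjusted p = 0.0286) was left out.

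CXCL13, the B cell attractant that binds CXCR5, stood at 4.80, 5.16 and 5.82 in Lgr5+ basal, 6.86, 5.50 and 5.30 in Lgr5- basal and 4.99, 5.41 and 5.59 in luminal cells. CCL4 and CCL5, which attract T cells and monocytes, were each detected on 2 Lgr5+ arrays, 1 Lgr5- array and at most 1 luminal array, and ran from 4.41 to 6.08 and from 4.69 to 5.86. The Lgr5+ arrays of pools 1 and 2 were the highest for both genes. CCL4 differed by 0.79 between Lgr5+ basal and luminal cells (adjusted p = 0.105), and passed when Lgr5+ basal replicate 3 (1.15, adjusted p = 0.0196) or replicate 1 of the luminal arrays (1.08, adjusted p = 0.0484) was left out. Over the 30 detected probes, pool 3 was the lowest array in all 3 groups for 8, in 2 groups for 8, in 1 group for 10 and in none for 4. The 8 were both probes of CXCL2 and of CXCL16, and 1 probe each of CCL11, CCL7, CXCL9 and CXCL10. These counts were not made over all detected probes, so they show no trait particular to chemokines. Pool 3 was also the only pool on BeadChip 2, so pool and BeadChip cannot be told apart there.

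**Figure D4:**
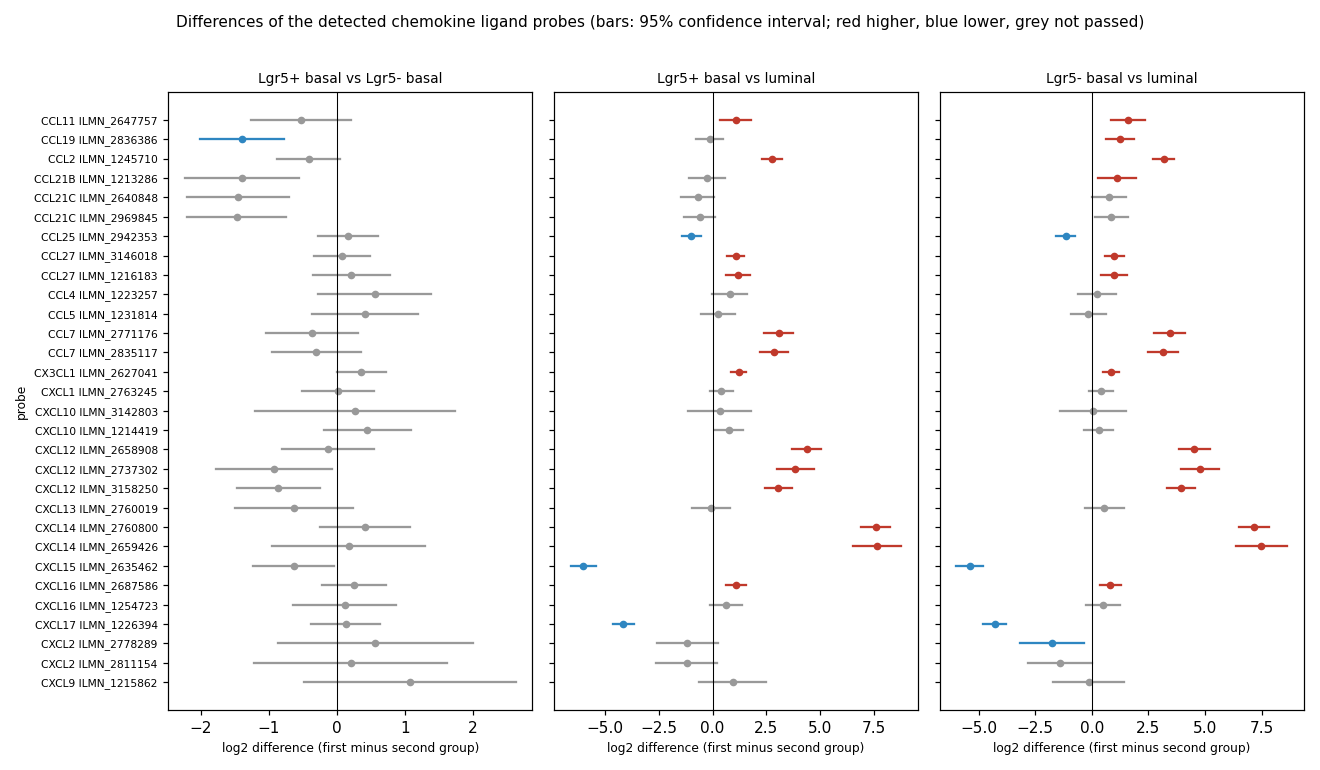
Log2 differences (x axis) of the 30 detected member probes (rows) with 95% confidence intervals, for Lgr5+ basal against Lgr5- basal, Lgr5+ basal against luminal and Lgr5- basal against luminal cells. Red marks probes that were higher, blue lower, and grey not past an adjusted p of 0.05. The scale of the left panel is narrower, and CXCL14 and CXCL15 reach the ends of the other panels.

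Chemokine receptors were mostly not detected, 5 of 23 listed receptors having a detected probe (21 were on the array). Against luminal cells 3 were higher, 1 lower and 1 did not pass in Lgr5+ basal cells, and 2, 1 and 2 in Lgr5- basal cells. Over all detected probes, 22.8% were higher and 25.2% lower in Lgr5+, and 20.7% and 21.8% in Lgr5- basal cells. Between the basal groups 0 of the 5 passed on their brightest probe, where 0.965% of all probes passed. An unadjusted p under 0.05 was found for 2, a count not made over all probes. Cxcr4, the signalling receptor of CXCL12, stood at 9.13, 8.95 and 9.41 in Lgr5+ basal, 9.19, 8.96 and 9.004 in Lgr5- basal and 7.60, 7.19 and 7.40 in luminal cells. The ligand and this receptor were thus both higher in the basal layer, Cxcr4 by 1.77 (adjusted p = 1.56e-05) and 1.66 (adjusted p = 2.56e-05). Ackr3, which takes up CXCL12, was detected on all 3 Lgr5+ basal arrays (6.74, 6.15 and 5.59) and on no Lgr5- basal (5.27, 4.62 and 5.18) or luminal array (4.44, 4.37 and 4.37). Lgr5+ basal cells exceeded luminal cells by at least 1.56-fold (adjusted p = 3.4e-04), and its difference from Lgr5- basal cells did not pass (1.14, adjusted p = 0.0957).

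Ackr4, a scavenger of CCL19, CCL21 and CCL25, stood on its brightest probe at 7.98, 7.96 and 7.31 in Lgr5+ basal, 8.92, 9.04 and 8.63 in Lgr5- basal and 4.47, 5.38 and 4.61 in luminal cells, where it was not detected. On this probe Lgr5+ basal cells exceeded luminal cells by at least 4.68-fold (adjusted p = 6.33e-06) and Lgr5- basal cells by at least 10.1-fold (adjusted p = 5.15e-07). Other probes gave less. ILMN_1251660 gave at least 1.93-fold and at least 3.79-fold. ILMN_2637408 did not pass in Lgr5+ (0.43, adjusted p = 0.111) and gave at least 2.30-fold in Lgr5- basal cells. ILMN_2689265 passed in neither (0.22, adjusted p = 0.602, and 0.80, adjusted p = 0.0622). Between the basal groups the brightest probe did not pass (-1.11, adjusted p = 0.0948). Among the other 3 detected Ackr4 probes, ILMN_1251660 passed as lower in Lgr5+ basal cells (-0.97, adjusted p = 0.0214) and ILMN_2637408 was at least 2.44-fold lower (adjusted p = 0.0035), while ILMN_2689265 did not pass (-0.58, adjusted p = 0.417). Ccrl2, a chemerin-binding receptor, was lower than in luminal cells, with differences of -1.28 in Lgr5+ (adjusted p = 3.27e-04) and -1.52 in Lgr5- basal cells (adjusted p = 9.56e-05). Ackr1, a decoy receptor of venular endothelium and erythrocytes, was highest in Lgr5+ basal replicate 2 at 9.47, the array with high endothelial markers, and differed by 0.88 between the basal groups (adjusted p = 0.524). Its difference between Lgr5+ basal and luminal cells passed under the replicate block by pool (1.45, adjusted p = 0.0301) and not without it (adjusted p = 0.0602). With group as the only term it did pass when luminal replicate 2 was left out.

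Of 12 listed proteases that cut or release chemokines, 5 had a detected probe, and 2 were higher and 3 lower in Lgr5+ basal than in luminal cells. In Lgr5- basal cells 1 was higher, 3 lower and 1 did not pass, and between the basal groups 0 of 5 passed (0 at an unadjusted p under 0.05). Over all detected probes, 22.8% were higher and 25.2% lower in Lgr5+ basal cells, 20.7% and 21.8% in Lgr5- basal cells. Between the basal groups 0.965% of all probes passed. Mmp2, a matrix metalloproteinase that truncates CXCL12 and CCL7, stood at 13.07, 12.97 and 13.04 in Lgr5+ basal, 12.51, 12.58 and 12.70 in Lgr5- basal and 6.52, 7.04 and 6.22 in luminal cells. It was higher by 6.43 (adjusted p = 1.13e-08) and 6.00 (adjusted p = 1.67e-08). Mmp14 passed in Lgr5+ basal cells (0.54, adjusted p = 0.0186), though not without Lgr5+ basal replicate 2 (adjusted p = 0.0808). Adam10 and Adam17, which shed CX3CL1 and CXCL16, were lower in both basal groups, where those ligands were higher. Adam10 stood at 4.53, 5.46 and 5.84 in Lgr5+ basal, 4.48, 4.93 and 5.81 in Lgr5- basal and 7.17, 6.995 and 8.10 in luminal cells. Its basal values lay around the lowest level called detected, 5.22 to 5.60 on the basal arrays, so the size of its differences is uncertain. These differences were -2.14 (adjusted p = 0.00165) and -2.35 (adjusted p = 9.69e-04). For Adam17 they were -0.96 (adjusted p = 0.002) and -0.98 (adjusted p = 0.00183), and its other probe also passed (-0.86 and -0.70). Dpp4, which clips CXCL12 and CXCL10, was lower as well (-0.88, adjusted p = 0.00533, and -0.70, adjusted p = 0.0199), and without luminal replicate 2 the second did not pass (adjusted p = 0.0607). Basal values of Dpp4, from 4.87 to 5.55, also lay around the lowest level called detected.

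**Figure D5:**
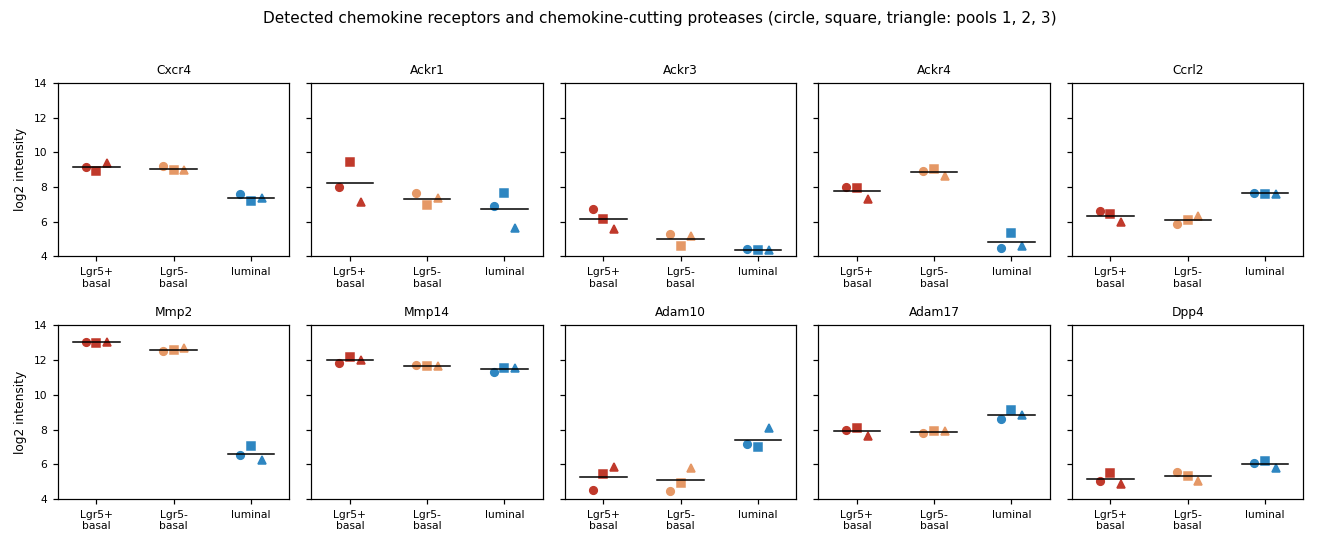
Normalized log2 intensity (y axis) of the 5 detected chemokine receptors (upper row) and the 5 detected chemokine-cutting proteases (lower row) in Lgr5+ basal, Lgr5- basal and luminal cells (x axis), by the brightest probe of each gene. Circle, square and triangle are pools 1, 2 and 3 and lines are group means of 3 arrays. Mmp2 and Cxcr4 lie higher in both basal groups, and Adam10, Adam17 and Dpp4 in luminal cells.

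Genes of the pathways that switch inducible chemokines on did not pass between the basal groups on the brightest probe of each gene. This held for 26 NF-kB and inflammatory cytokine genes, 16 interferon response genes and 24 immediate-early genes. In each list 2 genes had an unadjusted p under 0.05, a count not made over all probes. Over all detected probes 0.965% passed in that comparison. Among NF-kB genes the smallest p-values belonged to Nfkbie, an inhibitor (0.53, adjusted p = 0.162), the endotoxin receptor Tlr4 (0.55, 0.274), the co-activator Nfkbiz (0.44, 0.338) and the alarmin Il33 (0.56, 0.372). For interferon genes they belonged to the antiviral GTPase Mx2 (0.59, adjusted p = 0.234), the receptor chains Ifngr2 (0.84, 0.255) and Ifngr1 (0.35, 0.379) and the antiviral enzyme Rsad2 (-0.45, 0.491), with Ifngr2 at -0.28 and -0.10 on its other probes. Among immediate-early genes they belonged to Ier2 (1.00, adjusted p = 0.119), Atf3 (0.47, 0.284), Dusp1 (0.30, 0.437) and Klf6 (0.45, 0.452). Ier2 passed without luminal replicate 2 (adjusted p = 0.0457). Medians of the lists were 0.15, 0.11 and 0.18.

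Against luminal cells the same lists moved in both directions. Of the 26 NF-kB and cytokine genes 6 were higher and 8 lower in Lgr5+ basal cells, and 5 and 8 in Lgr5- basal cells. Shares of all detected probes were close to this, 22.8% higher and 25.2% lower in Lgr5+, and 20.7% and 21.8% in Lgr5- basal cells. Tnf, the cytokine that induces CXCL1 and CXCL2 in many cells, had a log2 difference of -3.48 in Lgr5+ (5.02 ± 0.53 against 8.49 ± 0.41 in luminal cells, SD, n = 3, adjusted p = 2.54e-06) and was at least 8.84-fold lower in Lgr5- basal cells (adjusted p = 3.27e-06). Icam1, which binds leukocytes, was higher by 3.51 (adjusted p = 1.25e-06) and 3.35 (adjusted p = 1.7e-06), and the receptor Tlr2 by 2.15 (adjusted p = 1.25e-06) and 2.19 (adjusted p = 1.04e-06). Nfkbia, an NF-kB inhibitor, was lower (-0.60, adjusted p = 0.0335, and -0.66, adjusted p = 0.0245), though its other probe did not pass (-0.41 and -0.70). The macrophage growth factor Csf1 was higher in Lgr5+ basal cells by 2.34 (adjusted p = 3.15e-05), and Il33 was lower in Lgr5- basal cells (-2.65, adjusted p = 1.64e-05). Neither was particular to 1 basal group. Csf1 stood at 8.02, 8.09 and 7.96 in Lgr5- basal and 6.16, 6.81 and 5.555 in luminal cells. Il33 stood at 6.52, 6.585 and 6.92 in Lgr5+ basal and 8.10, 8.86 and 9.32 in luminal cells.

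Of the 16 interferon response genes 6 were higher and 2 lower in Lgr5+ basal cells than in luminal cells, and 4 and 2 in Lgr5- basal cells. Usp18, which damps interferon signalling, had differences of -2.61 (adjusted p = 2.73e-06) and -2.81 (adjusted p = 1.52e-06). Ifit2, an antiviral protein, was higher by 1.02 (adjusted p = 0.00175) and 1.30 (adjusted p = 3.4e-04), while its other probe did not pass in Lgr5+ basal cells (0.50, adjusted p = 0.145), and the GTPase Gbp3 by 1.21 (adjusted p = 3.45e-04) and 1.19 (adjusted p = 4.24e-04). Among 24 immediate-early genes, whose levels also respond to tissue dissociation, 10 were higher and 3 lower in Lgr5+, and 7 and 4 in Lgr5- basal cells. Beside both lists stand the shares of all detected probes, 22.8% higher and 25.2% lower in Lgr5+, and 20.7% and 21.8% in Lgr5- basal cells. Egr2 was higher by 3.39 (adjusted p = 3.84e-06) and 3.33 (adjusted p = 4.41e-06), Gadd45b by 2.76 (adjusted p = 3.07e-07) and 2.64 (adjusted p = 3.97e-07), Dusp2 by 2.83 (adjusted p = 2.2e-05) and 2.74 (adjusted p = 2.79e-05) and Egr3 by 3.09 (adjusted p = 1.18e-04) and 2.87 (adjusted p = 2.14e-04). Medians of the 3 lists were -0.07, 0.56 and 0.36 in Lgr5+ and -0.08, 0.20 and 0.04 in Lgr5- basal cells. CXCL1 did not pass in these comparisons and CXCL2 was, where it passed, lower in basal cells.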

How the data were processed

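RNA of 9 sorted mammary samples was hybridised to Illumina bead arrays. GenomeStudio and limma were used, per the submitters' processing notes, without versions. The deposited values used were of 3 kinds: raw intensities exported before normalization, a detection fraction per probe and array, headed as a p-value per the file headers although it rises with signal, and the authors' log2 values. The sources used here do not state how these were made, but normexp background correction from the deposited intensities (offset 16, background inferred from the detection column) followed by quantile normalization came within 0.0284 of them on every array. Per the file headers, the authors set aside 26391 probes for lack of expression or poor annotation and kept 18890.

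All 17712 probes with a detection fraction above 0.99 on at least 3 arrays were fitted on the deposited log2 values with limma 3.58.1 (R 4.3.3), 9 arrays with group as the only term. Tests were two-sided, with Benjamini-Hochberg adjustment over all probes and a threshold of 0.05. The fit, tested on simulated data, ran with 6 residual and 4.67 prior degrees of freedom. Titles give replicate numbers, and that same-numbered samples came from the same pool was inferred from them. Residuals of same-numbered samples correlated at 0.275, 0.231 and 0.403 between the basal groups, at 0.097, 0.083 and 0.109 between Lgr5+ basal and luminal cells and at 0.302, 0.110 and 0.367 between Lgr5- basal and luminal cells, so the fit with pool as a block was treated as the paired analysis. Depth does not apply to arrays, where the number of arrays limits precision. Figures were drawn in matplotlib 3.10.9 with Python 3.11.15.

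Every member gene with a detected probe was named, with each array's value where a probe of it passed. Of each other list, the 4 genes with the smallest p in each comparison were named, along with Ackr3, Cxcr4, Dpp4 and Nfkbia; 1 gene that this rule names is not reported here. A gene on a list was represented by its brightest detected probe. Members and lists were chosen with earlier results of these data known. Alternatives changed background correction, normalization, filter, blocks and arrays. Promoters are RefSeq's; gene names are the array's, and all 35 member names matched RefSeq.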

Additional observations from a re-analysis of the deposited data

How the results depend on the processing

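Between Lgr5+ and Lgr5- basal cells, 1 member probe (CCL19) passed. The count was 0 without background correction, with median centring in place of quantile normalization, without the detection filter, with pool as a replicate block and with only the 2 groups compared. It was also 0 without Lgr5+ basal replicate 2 and luminal replicate 2 together, an alternative chosen after seeing the data. Within BeadChip 1 it was 5. Leaving out 1 array gave 0 to 2. The cause of these changes was not tested. The counts against luminal cells, 16 in Lgr5+ and 19 in Lgr5- basal cells, stayed within 1.5 times of those values under every alternative run. They ranged from 11 to 22 and from 13 to 22, with 18 and 20 under the replicate block and 15 to 19 and 17 to 22 when 1 array was left out. Apart from CCL19, CXCL2 and Ackr1, the block changed no call named in the text. Of the called differences, 15 of 16 in Lgr5+ basal cells (CCL11 was the exception) and 14 of 19 in Lgr5- basal cells kept their call under every alternative in which the probe was tested, and none reversed. Between 20 and 22 alternatives were run per probe, since probes the authors had set aside and second probes of a gene drop out of some. The other 5 were CCL21B, CXCL2 and CCL27 (1 probe each), and CX3CL1 and CXCL16, which lost it under median centring (adjusted p = 0.0508 and 0.0596). CCL27 (ILMN_1216183) lost it within BeadChip 1 (adjusted p = 0.0751). Over all probes, the basal groups differed at 171 probes, 55 with median centring, 92 with only the 2 groups compared, 917 within BeadChip 1 and 42 without both arrays named above, with 48 to 1292 when 1 array was left out (1292 without Lgr5+ basal replicate 3). Of those called, 49.1% were higher, 40% with median centring, 36.2% within BeadChip 1 and 37.5% without Lgr5+ basal replicate 3. Lgr5- basal and luminal cells differed at 7538 probes, or 4967 with median centring. Background correction set the size of differences from luminal cells for bright probes too: without it, Lgr5+ basal and luminal cells differed by 6.50 against 7.60 with it for CXCL14 (ILMN_2760800), 3.41 against 4.39 for CXCL12 (ILMN_2658908), -4.82 against -6.02 for CXCL15 and -2.14 against -4.15 for CXCL17, all still past the threshold.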
